A study of Mus musculus with 16 samples.

Results

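Metallothioneins are small cysteine-rich proteins that bind zinc and copper, and together with zinc transporters they set how much free zinc a cell holds. The genes examined here were the metallothioneins Mt1, Mt2 and Mt3, the metal-sensing transcription factor gene Mtf1, the zinc exporters Slc30a1 (ZnT1) and Slc30a3 (ZnT3), and the zinc importer Slc39a14 (ZIP14). They were taken by gene symbol, and all 7 were found among the 14504 genes of the table of normalized counts. RNA came from tissue punches of the mouse DRN (dorsal raphe nucleus), a midbrain cell group rich in serotonin neurons, from adult male C57BL/6 animals with no engineered allele. Control mice were housed singly and not defeated. Stressed mice went through 30 days of chronic social defeat and were sorted by their behavior into passive coping (PS) and active coping (AS) animals. Each animal was injected with saline or with DEX (dexamethasone, a synthetic glucocorticoid receptor agonist) at 2 mg/kg, 6 h before collection. The 16 libraries were 3 control saline, 3 control DEX, 2 PS saline, 3 PS DEX, 3 AS saline and 2 AS DEX libraries, each from the animal whose number is in its name (con_sal_102). The study left out DRN samples of DEX-treated PS and AS mice with low Tph2, so the amount of serotonin tissue was part of how the libraries were chosen.

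In the brain Mt1 and Mt2 are expressed mainly in astrocytes and other non-neuronal cells, and are known to be induced by metals through MTF1 and by glucocorticoids. Mt3 is the brain-enriched metallothionein. Slc30a1 moves zinc out of the cell and is a classic MTF1 target, Slc30a3 loads zinc into synaptic vesicles, and Slc39a14 carries zinc, iron and manganese into the cell. In bulk tissue a change in RNA per cell and a change in the number of cells cannot be told apart.

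The libraries held 38207157 to 62447298 reads in the listed genes, and the lowest count of any of the 7 genes was 739 reads, so counting error was small beside the spread between animals. The 8 serotonin neuron markers were present in every library, with a summed normalized count of 298740 to 449320. Fkbp5, a glucocorticoid receptor target used to check the DEX label, lay between 1241 and 1536 normalized counts in the 8 saline libraries and between 5578 and 6958 in the 8 DEX libraries. Tsc22d3, another such target (GILZ), rose by 0.79 ± 0.09 on the log2 scale on average (limma, adjusted p = 0.000194). Of 12 glucocorticoid target genes, 11 were called higher with DEX averaged over the 3 phenotypes, beside 403 of all 14504 genes.

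Mt3, Mt2 and Mt1 lie in this order on the plus strand of chromosome 8 within 27721 bases (GRCm38). Mt3 spans chr8:94152607-94154146, Mt2 chr8:94172664-94173568 and Mt1 chr8:94179082-94180327, and 5513 bases separate Mt2 from Mt1. Slc30a1 lies at chr1:191906767-191913247 (plus strand), Mtf1 at chr4:124802104-124849800 (plus strand), Slc30a3 at chr5:31086106-31108237 (minus strand) and Slc39a14 at chr14:70303469-70351425 (minus strand). All 7 are protein-coding. Mt2, Slc30a1, Slc30a3 and Mtf1 overlap a gene annotated on the opposite strand (Gm45774, 1700034H15Rik, Gm9924 with Dnajc5g, and 1110065P20Rik). The libraries kept the strand, but whether the counting used it is not stated, so reads in those overlaps cannot be assigned with certainty.

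The promoter windows of 4 of the genes are shown because the metal response element (MRE), the site that MTF1 binds, has a short core that can be read in them. Each window holds 250 bases before and 50 bases from the RefSeq start on, on the plus strand of GRCm38.p6, 5′ to 3′. Capitals mark matches to the MRE cores TGCACNC and TGCGCNC on either strand. No marked matches overlap each other.
Mt1, chr8:94178839-94179138: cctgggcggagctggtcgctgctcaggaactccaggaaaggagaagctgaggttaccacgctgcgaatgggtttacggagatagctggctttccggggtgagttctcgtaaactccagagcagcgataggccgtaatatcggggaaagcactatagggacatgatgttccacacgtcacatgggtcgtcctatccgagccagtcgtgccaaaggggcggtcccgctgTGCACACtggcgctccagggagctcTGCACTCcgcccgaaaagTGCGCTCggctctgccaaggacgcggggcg
Mt2, chr8:94172368-94172667: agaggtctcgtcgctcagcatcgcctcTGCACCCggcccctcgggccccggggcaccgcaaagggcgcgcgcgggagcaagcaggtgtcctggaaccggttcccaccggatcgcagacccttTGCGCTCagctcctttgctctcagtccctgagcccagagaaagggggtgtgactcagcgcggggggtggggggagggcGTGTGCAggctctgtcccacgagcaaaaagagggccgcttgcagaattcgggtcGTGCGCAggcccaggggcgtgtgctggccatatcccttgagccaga
Mt3, chr8:94152357-94152656: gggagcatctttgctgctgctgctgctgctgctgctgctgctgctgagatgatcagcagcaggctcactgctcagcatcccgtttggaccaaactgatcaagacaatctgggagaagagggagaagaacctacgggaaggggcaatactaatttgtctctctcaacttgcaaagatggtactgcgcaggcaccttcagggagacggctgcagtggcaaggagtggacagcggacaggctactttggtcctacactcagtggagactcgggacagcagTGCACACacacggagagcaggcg
Slc30a1, chr1:191906531-191906830: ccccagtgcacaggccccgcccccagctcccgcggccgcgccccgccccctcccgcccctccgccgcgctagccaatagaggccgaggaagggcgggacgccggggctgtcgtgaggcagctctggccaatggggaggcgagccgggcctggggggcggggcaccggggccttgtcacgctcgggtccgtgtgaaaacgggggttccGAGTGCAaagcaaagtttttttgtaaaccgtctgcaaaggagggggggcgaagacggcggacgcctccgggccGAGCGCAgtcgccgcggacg

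A window was found for 6 of the 7 genes. The Mt2 window held 4 matches, a number reached by 0.517% of the 32851 promoter windows of the same length in the RefSeq table. The Mt1 window held 3 matches (reached by 1.97%), Slc30a1 held 2 (reached by 7.11%), and Mt3 held 1, as did the upstream of 2 windows of Slc30a3 (reached by 25.7%). The downstream Slc30a3 window and the Mtf1 window held none. The RefSeq start used for Mt2 lies 46 bases before the GENCODE start of the gene, and that of Mtf1 lies 445 bases inside the gene, so the windows do not cover the same part of each promoter. The full palindrome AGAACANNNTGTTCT that the glucocorticoid receptor can bind was in 3 of the 32851 windows (0.00913%) and in none of the windows of these genes. The shorter word TGTTCT, the end of that palindrome, was in 19.0% of all windows, and in the Mtf1 window and the upstream Slc30a3 window here. These matches describe the letters of the windows only.

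**Figure D1:**
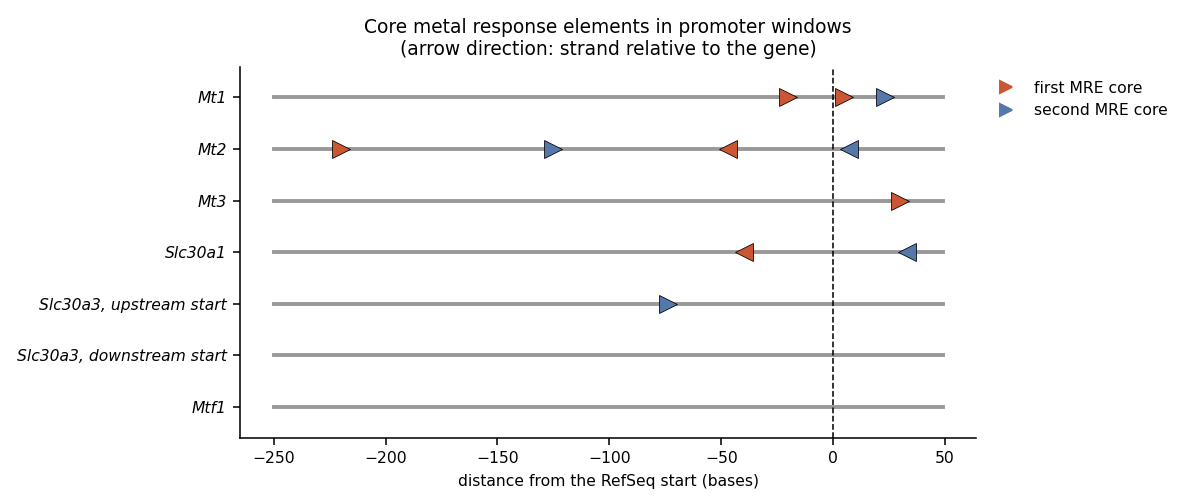
Positions of MRE core matches along 7 promoter windows of 6 genes. The horizontal axis is the distance from the RefSeq start in bases, each grey line is a window, and each arrow is a match whose direction gives its strand relative to the gene, in orange for the first core named in the text (with A at the variable base) and in blue for the second (with G). Mt2 has 4 arrows and Mt1 has 3, and the Mtf1 line has none.

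Levels of different genes were compared per kilobase of merged exons. In control saline mice Mt3 was the highest of the 7, at 8264 ± 1901 normalized counts per kb (SD, n = 3). Mt2 followed at 4488 ± 783 and Mt1 at 4441 ± 1068, and the libraries of these neighbors overlapped. The transporters were lower, with Slc30a3 at 485 ± 36.3 and Slc30a1 at 312 ± 37.7. Mtf1 at 150.0 ± 22.9 and Slc39a14 at 144 ± 29.2 were the lowest and overlapped each other. After DEX the order at the top was different in controls: Mt2 stood at 11665 ± 109 normalized counts per kb, Mt1 at 8021 ± 806 and Mt3 at 6962 ± 1454 (n = 3), with the libraries of Mt2 above those of the other 2 genes and those of Mt1 and Mt3 overlapping. The merged exons of Mt1 cover its whole span of 1246 bases, introns of its shorter transcripts included, so its level per kb is a low estimate and its place in this order depends on that length: at 670 bases Mt1 would equal Mt3 in control saline mice, and at 857 bases it would equal Mt2 in control DEX mice.

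To learn whether glucocorticoid receptor activation changed zinc handling in the DRN, DEX and saline libraries were compared within each phenotype and on average over the 3. Mt2 rose with DEX in each phenotype and Mt1, Mt2 and Slc39a14 rose on average, while Mt3, Mtf1, Slc30a1 and Slc30a3 were not called in any of these comparisons. A gene was called at a Benjamini-Hochberg adjusted p under 0.1 over all 14504 genes in a limma fit of log2(normalized count + 1). In controls 1 of the 7 genes was called, against 1.26% of all genes. In PS mice 1 of 7 was called (0.703% of all genes), and in AS mice 1 of 7 (0.689% of all genes). In the average 3 of 7 were called, against 4.31% of all genes. The 7 genes were chosen with earlier results of these data known, so these shares describe them and do not test the list. The median change of the 7 genes in the average was 0.05 on the log2 scale, beside -0.003 for all genes, so the change sat in a few of the 7 and not in the list as a whole. For Mt1, Mt2 and Slc39a14, the DEX libraries lay above the saline libraries in all 3 phenotypes, a pattern that 1.9% of all genes showed.

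Mt2 is the member with the strongest evidence. Its control saline libraries held 3024, 2763 and 2129 normalized counts and its control DEX libraries 6895, 6785 and 6897. The PS saline libraries held 3515 and 2669 and the PS DEX libraries 6070, 10269 and 10109. In AS mice the saline libraries held 3025, 4374 and 3558 and the DEX libraries 7811 and 7585. Every DEX library was above every saline library of the study. DEX above saline within all 3 phenotypes, a looser pattern, was seen in 1.9% of all genes. The share for the stricter pattern was not counted. The 3 control DEX libraries lay close together, while PS_dex_6 was well below the other 2 PS DEX libraries. The change was 1.39 ± 0.20 (SE) on the log2 scale in controls (2.63-fold, adjusted p = 0.00243, limma), 1.48 ± 0.22 in PS mice (2.80-fold, adjusted p = 0.00554) and 1.09 ± 0.22 in AS mice (2.13-fold, adjusted p = 0.0476). On average it was 1.32 ± 0.12, or 2.50-fold with a 95% confidence interval of 2.08 to 3.0 (adjusted p = 1.95e-05). The PS call was lost without PS_sal_68 (log2 change 1.29, adjusted p = 0.168). The AS call was lost without AS_sal_8 (0.96, adjusted p = 0.123), AS_sal_40 (1.08, adjusted p = 0.131), AS_dex_38 (1.07, adjusted p = 0.313) or AS_dex_42 (1.11, adjusted p = 0.515), and when the AS groups were fitted alone (adjusted p = 0.346). Without PS_sal_68, AS_dex_38 or AS_dex_42 a group is left with 1 library, which is then assumed to vary like the other groups.

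Mt1, the neighbor of Mt2 with the same metal-binding role, rose on average, and its difference in each phenotype was positive without reaching the threshold. Its control saline libraries held 5632, 6812 and 4157 normalized counts and its control DEX libraries 9041, 9898 and 11043. In PS mice the values were 6119 and 4677 with saline and 6855, 13369 and 16664 with DEX. In AS mice they were 5095, 7246 and 6509 with saline and 13758 and 10077 with DEX. DEX and saline libraries did not overlap within any phenotype, but PS_dex_6 was close to PS_sal_62 and below AS_sal_14. The summed count of 7 measured ependymal markers was also lowest of the 16 libraries in PS_dex_6 (552), beside 5520 and 12648 in PS_dex_34 and PS_dex_64, and it followed the order of Mt1 within every group except control saline. On the log2 scale, deviations of Mt1 from its group means correlated with those of this sum at r = 0.892 over 16 libraries, and those of Mt2 at r = 0.676, a description of libraries that share their dissection. The part of ependymal tissue in the Mt1 and Mt2 values was not tested. The log2 change was 0.88 ± 0.28 in controls (adjusted p = 0.224), 1.11 ± 0.31 in PS mice (adjusted p = 0.266) and 0.92 ± 0.31 in AS mice (adjusted p = 0.351), and 0.97 ± 0.17 on average (1.96-fold, 95% confidence interval 1.52 to 2.53, adjusted p = 0.00448). Without PS_dex_6 Mt1 was called in controls (0.88, adjusted p = 0.0718) and in PS mice (1.48, adjusted p = 0.0133). DESeq2 on the reads recovered from the values called Mt1 in controls (adjusted p = 0.0578), PS mice (0.00780) and AS mice (0.0978), over ranges of 0.0578 to 0.672, 0.00780 to 1 and 0.0493 to 0.953 for the adjusted p among all alternatives.

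Slc39a14, which encodes a broad-range importer of divalent metals, rose by a smaller amount. The control saline libraries held 1871, 1292 and 1399 normalized counts and the control DEX libraries 2016, 1936 and 2014. In PS mice the libraries held 1647 and 1725 with saline and 2339, 1999 and 2170 with DEX. In AS mice they held 1797, 1549 and 1340 with saline and 2043 and 2035 with DEX. As for Mt2, each of the 8 DEX libraries was above each of the 8 saline libraries, a pattern whose share among all genes was not counted. The highest of the saline libraries was con_sal_102. The log2 change was 0.41 ± 0.13 in controls (adjusted p = 0.257), 0.36 ± 0.15 in PS mice (adjusted p = 0.912) and 0.39 ± 0.15 in AS mice (adjusted p = 0.439), none of them called, and 0.39 ± 0.08 on average (1.31-fold, 95% confidence interval 1.16 to 1.48, adjusted p = 0.0177). Without con_sal_102 the change in controls was called (0.56, adjusted p = 0.0466).

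**Figure D2:**
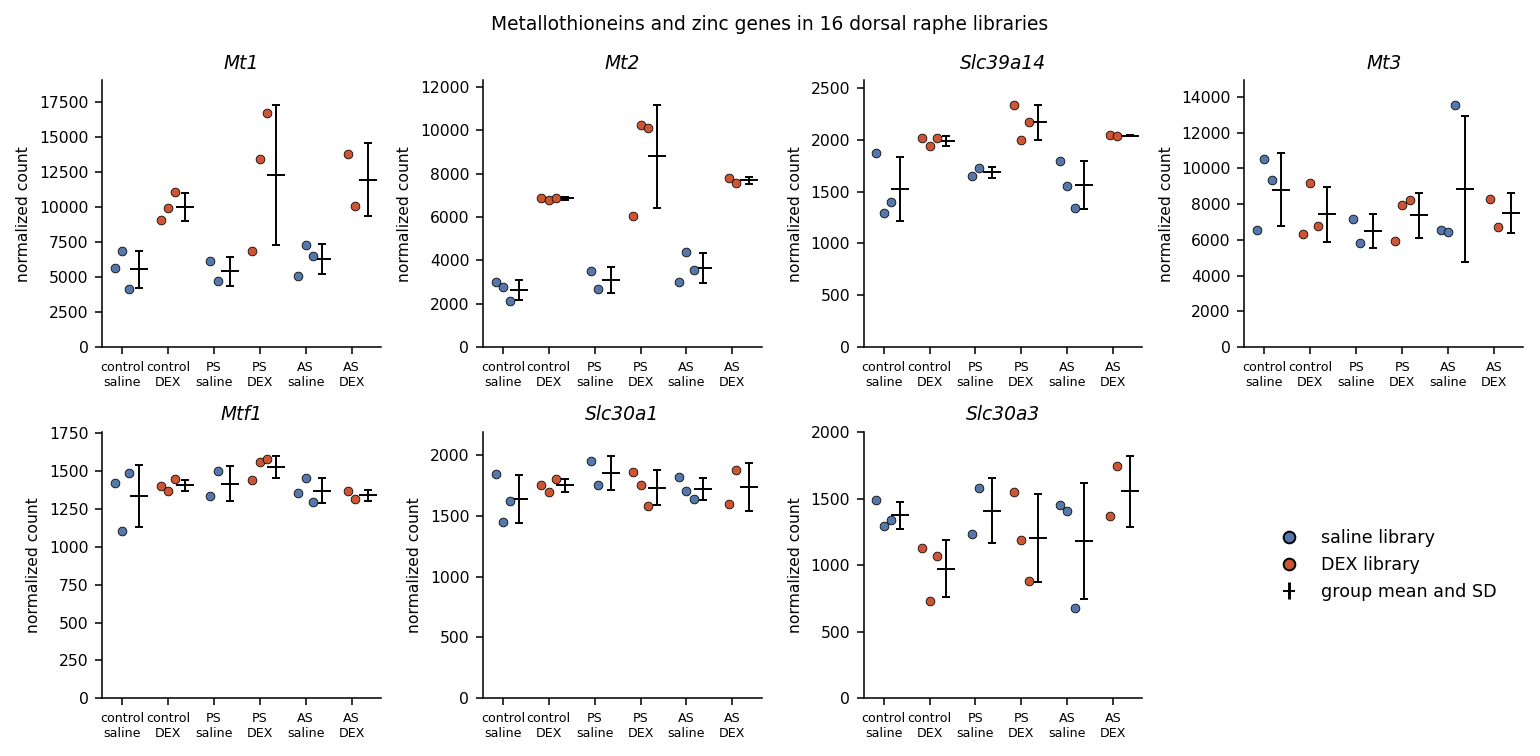
Normalized counts of the 7 genes in each of the 16 libraries. Each point is a library, blue for saline and orange for DEX, and the bar beside the points is the group mean with its SD; the vertical axes start at 0. In the Mt2 and Slc39a14 panels the 8 orange points sit above the 8 blue points, and in the Mtf1 and Slc30a1 panels the colors mix.

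Mt3, Mtf1 and Slc30a1 gave no call and DEX changes close to 0. Mt3, the metallothionein beside Mt2 and Mt1 on the chromosome, ran from 5818 normalized counts in PS_sal_68 to 13572 in AS_sal_40, and the saline and DEX libraries overlapped in each phenotype. Its average DEX change was -0.07 on the log2 scale, with a 95% confidence interval of -0.43 to 0.29 (adjusted p = 0.863), so a rise of the size seen for Mt1 or Mt2 lay outside the interval. The sign of that small change was positive without AS_sal_40 (0.05) and with library weights (0.06). Mtf1, the gene of the zinc sensor, ran from 1104 to 1578 normalized counts, with an average DEX change of 0.05 and an interval of -0.09 to 0.20. Slc30a1 ran from 1448 to 1949 normalized counts, and its average change was 0.004 with an interval of -0.14 to 0.15.

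**Figure D3:**
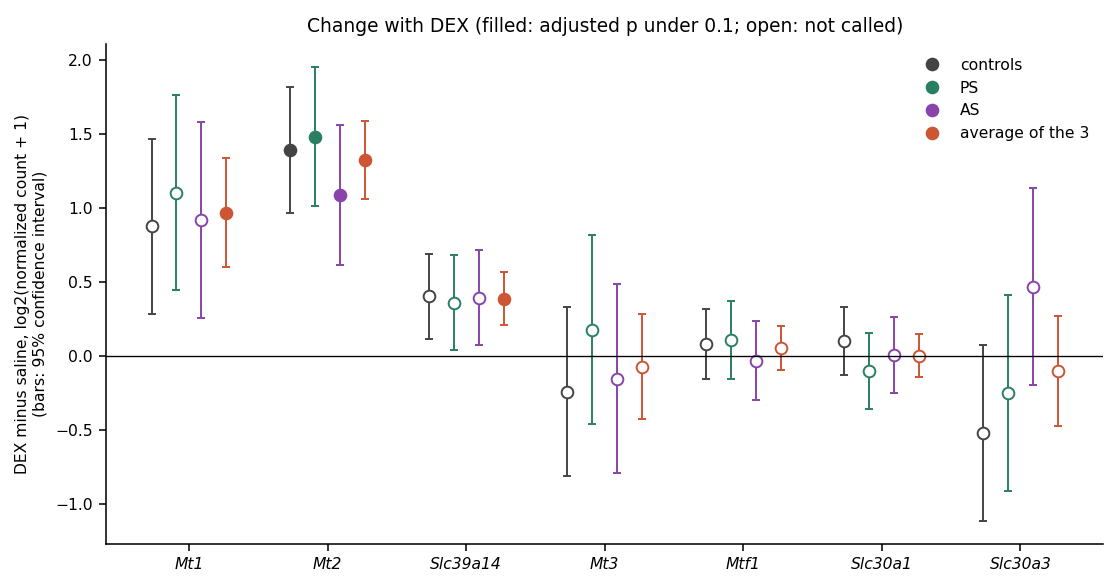
Change with DEX of each gene on the log2(normalized count + 1) scale, with 95% confidence intervals, in controls, PS mice and AS mice and averaged over the 3. Filled points were called and open points were not. Mt2 has 4 filled points, from 1.09 to 1.48, Mt1 and Slc39a14 have 1 each, at 0.97 and 0.39, and the intervals of the other 4 genes include 0.

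Slc30a3, the transporter that fills synaptic vesicles with zinc, had overlapping DEX and saline libraries in PS and AS mice and was not called. Control saline libraries held 1492, 1296 and 1339 normalized counts and control DEX libraries 1127, 730 and 1067. In PS mice the values were 1238 and 1584 with saline and 1547, 1191 and 885 with DEX. In AS mice they were 1451, 1410 and 676 with saline and 1367 and 1744 with DEX. The DEX libraries were lower than the saline libraries in controls, a pattern whose share among all genes was not counted. The log2 difference was -0.52 ± 0.28 in controls (adjusted p = 0.471), -0.25 ± 0.31 in PS mice (adjusted p = 0.9999) and 0.47 ± 0.31 in AS mice (adjusted p = 0.579), and -0.10 ± 0.17 on average (adjusted p = 0.809). The summed count of 5 measured GABA neuron markers had the same signs of difference: the DEX mean was 0.850 times the saline mean in controls, 0.909 times in PS mice and 1.29 times in AS mice. Deviations of Slc30a3 from its group means correlated with those of that sum at r = 0.856 over 16 libraries, a description of libraries that share their dissection. Of 5 glutamatergic neuron markers 2 were measured, and their summed count had the opposite sign of difference in controls and AS mice. Its mean was 14157 with saline and 18754 with DEX in controls, and 16950 and 13305 in AS mice. In PS mice it was 19786 and 16029, the same sign as Slc30a3. The part of neuron content of either kind in the Slc30a3 differences was not tested.

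The question of whether stress phenotype changed these genes was addressed by comparing PS, AS and control libraries with the same treatment, and by the differences between DEX effects. None of the 7 genes was called in any of these 9 comparisons by limma, and none by DESeq2 or edgeR. Among saline libraries the share of all genes called was 0% between PS and control mice, 0% between AS and control mice and 0% between AS and PS mice. Among DEX libraries these shares were 0%, 0.00689% and 0%. For the differences in DEX effect it was 0% for PS minus controls, 0% for AS minus controls and 0% for AS minus PS. At an unadjusted p under 0.05 these comparisons held 1112, 347, 494, 178, 508, 247, 304, 583 and 421 of the 14504 genes in that order, DESeq2 called 4, 11, 1, 0, 12, 5, 0, 0 and 1, and edgeR called 0 in each. Of the 42 changes of the 7 genes between phenotypes, 2 were under an unadjusted p of 0.05, and of the 21 differences between DEX effects 1 was.

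The first of these was Mt2, whose 3 AS saline libraries were above the 3 control saline libraries, a pattern whose share among all genes was not counted. The log2 difference was 0.47 with a 95% confidence interval of 0.04 to 0.89 (limma, unadjusted p = 0.0326, adjusted p = 0.998). PS saline libraries overlapped both groups. The others concerned Slc30a3. With DEX it was higher in the 2 AS libraries than in the 3 control libraries by 0.69 (interval 0.02 to 1.35, unadjusted p = 0.0431, adjusted p = 0.990). Its DEX effect was larger in AS mice than in controls by 0.99 (interval 0.10 to 1.88, unadjusted p = 0.0320, adjusted p = 0.941). Without AS_sal_40 this difference was 0.63, and that library had the lowest Slc30a3 and the highest Mt3 of the 16. For Mt2 the DEX effect differed by 0.09 between PS mice and controls (interval -0.54 to 0.73), by -0.30 between AS mice and controls (interval -0.94 to 0.33) and by -0.39 between AS and PS mice (interval -1.06 to 0.28). For Mt1 the corresponding intervals were -0.66 to 1.12, -0.84 to 0.93 and -1.12 to 0.75.

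On average over phenotypes, normalized counts of Mt2 rose with DEX by a larger factor than those of Mt1. The ratio of Mt2 to Mt1 normalized counts lay between 0.406 and 0.604 in the 8 saline libraries and between 0.568 and 0.886 in the 8 DEX libraries. In controls it was 0.485 ± 0.0697 with saline and 0.691 ± 0.0692 with DEX (SD, n = 3 each), and the libraries did not overlap. In PS mice it was 0.573 ± 0.00271 (n = 2) with saline and 0.753 ± 0.140 (n = 3) with DEX, again without overlap. In AS mice it was 0.581 ± 0.0305 (n = 3) and 0.660 ± 0.131 (n = 2), and AS_dex_38 at 0.568 lay inside the saline range. Averaged over phenotypes the log2 ratio was higher by 0.36 with DEX (two-sided exact permutation test of DEX and saline within phenotypes, p = 0.0055 over 2000 arrangements, where the smallest possible p is 0.0005). This test was chosen after the values had been seen. Leaving out each library in turn gave 0.29 to 0.42. A ratio within a library does not depend on the size factor. Within each DEX group the ratio was lower where the ependymal marker sum was higher. In PS DEX libraries it was 0.886, 0.768 and 0.607 at sums of 552, 5520 and 12648. Control saline libraries had this order too, while PS saline and AS saline libraries did not. The part of ependymal tissue in the ratio was not tested.

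**Figure D4:**
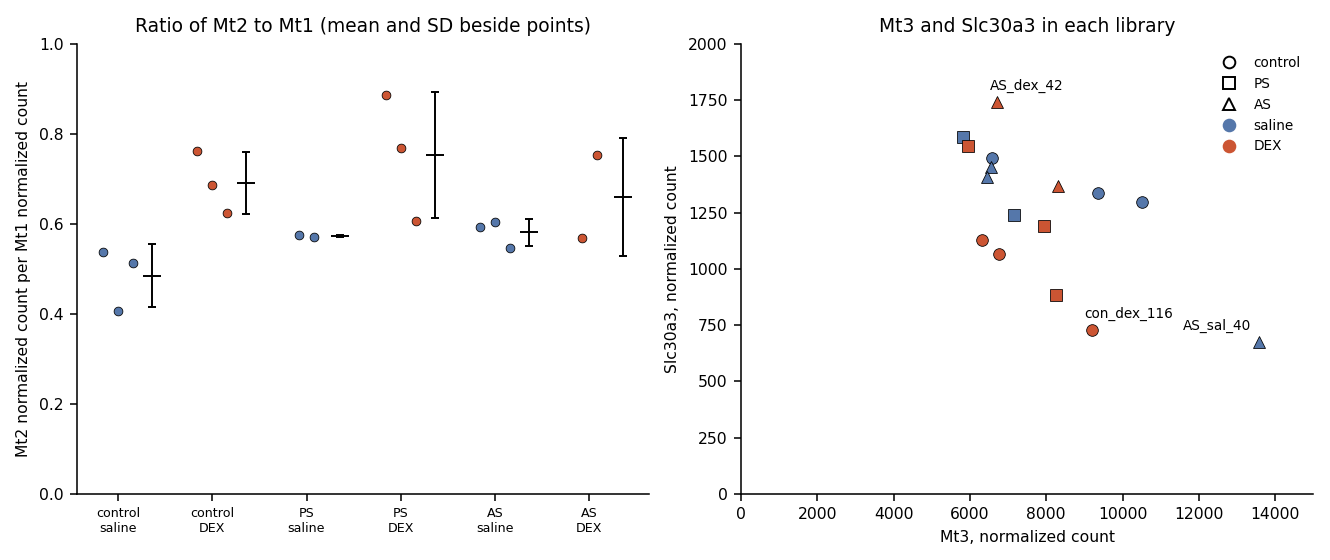
Left, the ratio of Mt2 to Mt1 normalized counts in each library by group, with the group mean and SD beside the points. Right, Mt3 against Slc30a3 in normalized counts, where each point is a library, shapes are phenotypes and colors are treatments. The DEX points on the left reach 0.886 and the saline points 0.604, and on the right AS_sal_40 has the highest Mt3 (13572) and the lowest Slc30a3 (676).

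Because Mt1 and Mt2 are abundant in astrocytes, 12 astrocyte markers were examined beside them. Their summed count was 192710 to 209940 in control saline and 209450 to 231890 in control DEX libraries. It was 187440 to 201310 in PS saline and 214170 to 225300 in PS DEX libraries, which did not overlap, and 201840 to 235670 and 215910 to 230560 in AS mice. The DEX mean of the sum was 1.08, 1.13 and 1.03 times the saline mean in controls, PS and AS mice. Mt2 changed 2.63, 2.80 and 2.13-fold in the log2 fit. Deviations of Mt1 and Mt2 from group means correlated with those of the log2 sum at r = 0.0872 and 0.0491. With the mean log2 level of the same markers they correlated at r = 0.720 and 0.569. Of the 12 markers 2 were called higher on average and none lower, and the median change was 0.005. Of 8 oligodendrocyte markers and 8 microglia markers, 3 each were called lower on average, and of 8 serotonin neuron and 8 endothelial markers 1 each was. Among all 14504 genes, 403 were called higher and 222 lower on average. Of the 7 ependymal markers 0 were called, with a median change of -0.25 on average. Their sum was 2170 to 5411 in control saline and 1113 to 6328 in control DEX libraries, 2236 to 5885 and 552 to 12648 in PS mice, and 2795 to 8691 and 1585 to 8169 in AS mice. Of 8 choroid plexus markers 5 were measured and 0 called, with a median change of 0.44 on average and 1.14 in PS mice. Their sum was 1688 to 2979 in control saline and 2253 to 2301 in control DEX libraries, 1029 to 2105 and 2070 to 3014 in PS mice, and 1649 to 2220 and 2506 to 2739 in AS mice, where the groups did not overlap. The part of cell composition in the changes of Mt1, Mt2 and Slc39a14 was not tested further.

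The other genes of metal handling were then examined, from lists of zinc exporters, zinc importers, other genes linked to MTF1, and copper genes. The average DEX effect was called for 2 of the 37 measured genes of these 4 lists (5.41%, against 4.31% of all genes, a share near the background). These were Slc39a14 and Atp7b, both higher. Of 11 exporters of the SLC30 family and Tmem163, 9 were measured and 0 were called. The smallest p were those of Slc30a7, a zinc transporter of the Golgi, with a log2 change of 0.24 ± 0.09 (adjusted p = 0.272), and Tmem163, a zinc-binding vesicle protein, with -0.08 ± 0.09 (adjusted p = 0.688), and the sign of the latter turned without PS_sal_62 (0.01). The median change of the exporters was -0.01, beside -0.003 for all genes. At an unadjusted p under 0.05, 1 of the 9 measured exporters passed, beside 2033 of all 14504 genes. DESeq2 and edgeR called 0 of the exporters.

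Of the 14 importers of the SLC39 family 12 were measured, and Slc39a14 was called, higher. The median change of the importers was 0.04. Slc39a12, an importer enriched in brain, was named after its values had been seen: it held 2103 ± 178 normalized counts in control saline and 2448 ± 135 in control DEX libraries (n = 3 each), and its average change of 0.28 ± 0.08 missed the threshold (adjusted p = 0.113). Of 24 alternatives, 20 also left it uncalled. It passed without PS_dex_6 (0.32, adjusted p = 0.0276) and without AS_sal_40 (0.32, adjusted p = 0.0273), with library weights (0.34, adjusted p = 0.00292) and with DESeq2 (adjusted p = 0.0521).

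Of 8 other genes linked to MTF1 or to metallothionein function, 6 were measured and 0 were called on average, with a median change of -0.11. Of these 6, 2 were under an unadjusted p of 0.05, beside 2033 of all 14504 genes. Gclm, the modifier subunit of the enzyme that starts glutathione synthesis, was called in controls (0.34 ± 0.08, adjusted p = 0.0750), where it rose from 4576 ± 368 to 5791 ± 385 normalized counts (n = 3 each). That call lay close to the threshold: it was lost in 13 of 16 fits that left out 1 library, with a log2 change of 0.29 to 0.41 and an adjusted p of 0.0411 to 0.266. On average its change was 0.17 ± 0.05 (adjusted p = 0.105), called by DESeq2 (adjusted p = 0.0340) and not by edgeR (adjusted p = 0.128). Csrp1, a zinc-finger LIM protein gene, had the next smallest p, with -0.22 ± 0.08 (adjusted p = 0.20).

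Of 11 copper genes 10 were measured and 1 was called on average. Atp7b, the copper-exporting ATPase, rose by 0.47 ± 0.12 (adjusted p = 0.0549). It held 360 ± 89.5 normalized counts in control saline and 467 ± 46.3 in control DEX libraries, 419 ± 6.68 and 557 ± 119 in PS mice, and 350.2 ± 39.2 and 535 ± 64.5 in AS mice. The call was lost without con_dex_122 (adjusted p = 0.129), PS_sal_62 (0.126), PS_sal_68 (0.164), PS_dex_64 (0.102), AS_sal_14 (0.104) or AS_dex_42 (0.227). The median change of the copper genes was -0.11, with 8 of 10 below 0.

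**Figure D5:**
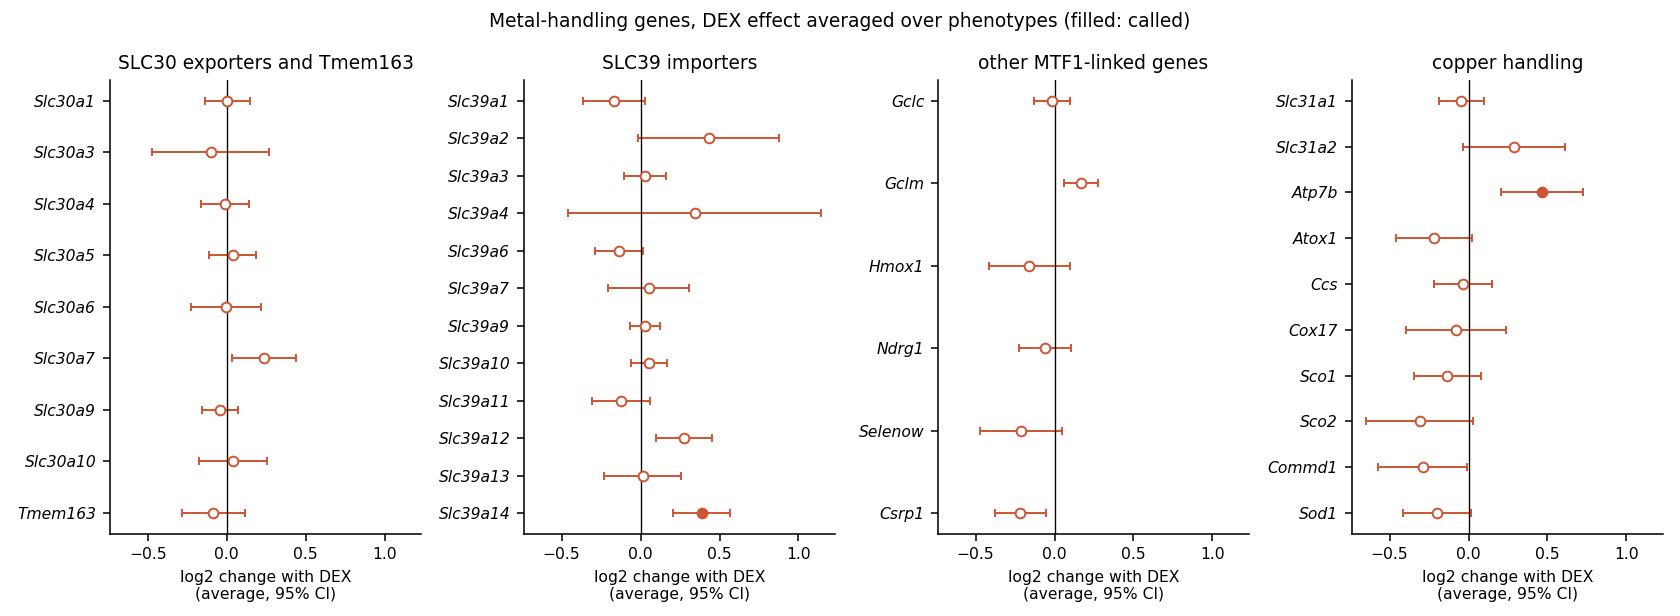
Average DEX effect over the 3 phenotypes for each measured gene of the 4 lists, on the log2(normalized count + 1) scale with 95% confidence intervals. Filled points were called. Slc39a14 at 0.39 and Atp7b at 0.47 are filled, and the open points of the exporters include Slc30a7 at 0.24 and Slc30a3 at -0.10.

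The genes whose levels were most like those of Mt1, Mt2 and Slc39a14 over the 16 libraries were looked up among 12862 genes with a mean of at least 100 normalized counts. For Mt1 they were Usp2 (r = 0.963), Mt2 (0.940) and Ppp1r1b (0.935). For Mt2 they were Fam107a (r = 0.955), Heph (0.950), which encodes a copper-dependent iron oxidase, and Fzd2 (0.947). For Slc39a14 they were Hip1 (r = 0.964), Daam2 (0.957) and Usp54 (0.954). These correlations include the difference between DEX and saline libraries. After group means were removed, the closest to Mt1 were Slc14a2 (r = 0.976), Ccdc3 (0.975) and Uckl1os (0.960), those closest to Mt2 were Card19 (0.904), Mt1 (0.883) and Slc14a2 (0.875), and those closest to Slc39a14 were Fam168a (0.957), Ltbp4 (0.953) and Eif4g3 (0.951). Mt1 and Mt2 thus varied together among animals of the same group, whereas Mt2 and Slc39a14, which both rose with DEX, did not (r = -0.150 after group means were removed). All these points share 16 libraries and their dissection, and they are given as a description.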

How the data were processed

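RNA-seq libraries of mouse DRN were grouped by their labels. Per the labels and the study's methods, the authors trimmed reads with fastp 0.20.1, aligned them with HISAT2 2.2.1 to GRCm38, counted them with featureCounts (Subread 2.0) on GENCODE and normalized them with DESeq2 1.36.0. The values used are the signal the authors deposited: gene counts after division by a size factor. The deposited tables of the authors' comparisons hold their fold changes and p-values and were not used. Multiplied by the size factor, 100% of values were whole within 0.1 read, which gave the reads and depth. The authors' filter had left 973 genes with fewer than 10 reads somewhere.

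In R 4.3.3, limma 3.58.1 fitted log2(normalized count + 1) with 1 mean for each of 6 groups over 16 libraries and eBayes with a trend (residual degrees of freedom 10, prior 3.88), with Benjamini-Hochberg adjustment over 14504 genes. This scale understates changes of low genes. Intervals are 95%. The fit was tested on simulated data. The deposited values are not whole counts, and limma was kept as the main test although whole reads could be recovered. Count models (DESeq2 1.42.0, edgeR 4.0.16) on the recovered reads were alternatives. So were other pseudocounts, a mean of at least 100, TMM, quantile normalization, library weights, fits of the compared groups alone and leaving out each library. Pairs of same-group libraries (14) had a chi-square of at least 23.0 for each degree of freedom, so none was a copy. Libraries are separate animals. The 7 genes and the lists were chosen with earlier results of these data known. Named were the 7 genes, any called gene of the metal lists or else its 2 smallest p, Fkbp5, Tsc22d3, and the 3 genes most like each of Mt1, Mt2 and Slc39a14. Positions and exon lengths are from GENCODE vM21 (the authors used vM22), and promoters from RefSeq (GRCm38.p6). The study describes more DRN libraries than the 16 analysed here. DESeq2 on these 16 called 437, 187 and 274 genes with DEX in controls, PS and AS mice, the same numbers that the study reports for the DRN.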

Additional observations from a re-analysis of the deposited data

How the results depend on the processing

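The counts of called genes among the 7 depended on the processing within single phenotypes and not in the average. With DEX, DESeq2 called 437 of all 14504 genes in controls, 187 in PS mice and 274 in AS mice. The main limma fit called fewer of all genes in each (1.26%, 0.703% and 0.689%). A higher DESeq2 count among the 7 therefore came with a higher count over all genes. In controls the count of 1 became 2 with DESeq2, and 1 to 2 when each library was left out in turn. In PS mice it became 2 with library weights, 2 with DESeq2 and 0 to 2 without 1 library. In AS mice it became 3 with library weights, 2 with DESeq2, 0 when the AS groups were fitted alone and 0 to 1 without 1 library. The average kept 3 called genes in each of 24 alternatives, with an adjusted p of at most 0.0262 for Mt1, 0.000182 for Mt2 and 0.0676 for Slc39a14. The counts of 0 in the 9 other comparisons stayed at 0 in each alternative run. Small differences that were not called turned sign: Mt3 on average with library weights (0.0627) and over -0.137 to 0.0477 without 1 library, Slc30a1 on average with quantile normalization (-0.0112), library weights (-0.000702) and over -0.0345 to 0.0426 without 1 library, the Mt2 difference between PS mice and controls over -0.107 to 0.340, and Tmem163 over -0.182 to 0.0118. The cause was not tested. The ratio of Mt2 to Mt1 was examined after seeing the data, with a p of 0.00125 to 0.0187 without 1 library.

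No paired analysis was possible because the animal numbers in the labels differ between groups. Each of the 7 genes had at least 739 reads in every library, and groups held 2 or 3 animals; what part either had in the missing calls was not tested.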

Other observations

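Mt3 and Slc30a3, a metallothionein and a vesicular zinc transporter that were not called with DEX, varied in opposite directions among animals of the same group. Their deviations from group means correlated at r = -0.925 over 16 libraries and at r = -0.840 over 15 libraries without AS_sal_40. This pair was picked after seeing the values, as the most extreme of the 21 pairs among the 7 genes. Deviations of Mt3 were also negatively correlated with those of Slc39a14 (r = -0.795), Slc30a1 (-0.613) and Mtf1 (-0.383). AS_sal_40 held 13572 normalized counts of Mt3 and 676 of Slc30a3, beside 6542 and 1451 in AS_sal_8 and 6441 and 1410 in AS_sal_14. The same library had the highest astrocyte marker sum of the 16 (235670) and the second lowest GABA marker sum (37662, above PS_dex_64 at 34859). Deviations of Mt3 correlated with those of the astrocyte marker sum at r = 0.575. The genes closest to Slc30a3 in level, looked up after its values had been seen, were Kcnc4 (r = 0.940), Lhx1 (0.928) and Slc32a1 (0.913), the last encoding the vesicular GABA transporter. Those closest to Mt3 were Tppp3 (r = 0.964), Pkig (0.961) and Rfc2 (0.955). These correlations are descriptions over libraries that share a dissection, and what part cell composition or RNA quality has in them was not tested.

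Mt1 and Mt2 deviations from group means correlated at r = 0.720 and r = 0.569 with the mean log2 level of the 12 astrocyte markers, but at r = 0.0872 and r = 0.0491 with the log2 of their summed count. Which of these summaries is chosen therefore changes how closely the metallothioneins appear to follow astrocyte markers.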
